A study of Mus musculus with 10 samples.

Results

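The angiotensin and endothelin system is described here by 9 genes, out of 24888 in the deposited expression table of mouse hearts, found by their gene symbols. Agt, Edn1 and Edn3 encode peptide precursors, Ace, Ece1 and Ece2 encode the enzymes that cut precursors into active peptides, and Agtr1a, Ednra and Ednrb encode receptors. Poly(A) RNA was sequenced from whole hearts of 2 groups with 5 libraries each. In the SPOP_CKI group, labelled CKI, the ubiquitin ligase adaptor SPOP was overexpressed with the cardiomyocyte-directed alpha-MHC (Myh6) Cre. The Cre_control group, titled WT, has the genotype Myh6Cre, so that Cre is common to both groups. All mice are labelled male, aged 8 to 10 weeks and under sham conditions. Cre driven by this promoter acts in cardiomyocytes, whereas the tissue sequenced also holds the vessel, stromal and blood cells in which several of these 9 genes are known to be expressed. In such bulk tissue, fewer cells of a type and less RNA per cell cannot be told apart.

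Angiotensinogen, the product of Agt, is cleaved by renin, and angiotensin-converting enzyme (Ace) trims the resulting decapeptide to angiotensin II, which acts on the type 1 receptor (Agtr1a, the main rodent form) to constrict vessels and to promote cardiac growth and fibrosis. Endothelins are made as big endothelins and matured by endothelin-converting enzymes. The type A receptor (Ednra) of smooth muscle and cardiomyocytes prefers endothelin-1, while the type B receptor (Ednrb), prominent in endothelium, binds all endothelin isopeptides alike. Both systems signal largely through Gq and G12/13 proteins.

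Depth was 15316293 to 17114869 reads per library. Values are given as scaled reads, the deposited unit, which are reads divided by the library's size factor. The targeted gene Spop had 25308 to 40631 scaled reads in SPOP_CKI hearts, against 3078 to 3726 in Cre_control hearts. One library stood apart: SPOP_CKI 3 had reads for 13167 genes, against 18531 to 20806 in the other 9, and 1968 of the 14212 genes tested were at 0 in it, against 5 to 61 elsewhere. Its mean correlation with the other SPOP_CKI libraries over tested genes was 0.81, while the other 4 had 0.89 to 0.91. Although every mouse is labelled male, Xist, the RNA that silences the second X chromosome of females, had 6491 scaled reads in SPOP_CKI 1, 6578 in SPOP_CKI 3 and 4491 in Cre_control 5, against at most 5.31 in the other 7 libraries. For the 9 genes, fits without SPOP_CKI 3 and without these 3 libraries are therefore also described. The labels number the hearts but name no litter or batch, so each p-value reflects only how these libraries scatter, which may in part be technical.

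Upstream sequence was taken from RefSeq (GRCm38.p6), in which 8 of the 9 genes were found, and Agtr1a was not. Windows of 250 bases for 4 genes, which end 1 base before the annotated start, are printed, 5′ to 3′ on the gene's strand. Edn3 is shown because it passed the test below and Edn1 because it encodes the related precursor that did not, and Ednra with Ednrb because these 2 receptors varied alike across the libraries. The RefSeq starts of Ednra and Ednrb lie inside the bounds that the deposited table gives for these genes. The whole Ednrb window lies inside its gene's bounds, so it is upstream only of the RefSeq start, while most of the Ednra window lies outside. Capitals mark matches to the motifs searched.
Edn3, chr2:174760369-174760618, plus strand: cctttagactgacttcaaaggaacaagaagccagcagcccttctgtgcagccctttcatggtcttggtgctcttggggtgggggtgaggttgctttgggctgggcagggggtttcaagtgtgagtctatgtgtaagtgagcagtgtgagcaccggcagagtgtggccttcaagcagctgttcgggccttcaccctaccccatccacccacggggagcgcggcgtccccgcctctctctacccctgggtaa
Edn1, chr13:42301226-42301475, plus strand: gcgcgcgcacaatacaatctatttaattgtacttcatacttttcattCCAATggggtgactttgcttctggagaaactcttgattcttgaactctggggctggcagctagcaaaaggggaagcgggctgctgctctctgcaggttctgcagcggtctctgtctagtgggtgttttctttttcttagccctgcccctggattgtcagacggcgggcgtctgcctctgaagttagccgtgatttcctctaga
Ednra, chr8:77724453-77724702, minus strand: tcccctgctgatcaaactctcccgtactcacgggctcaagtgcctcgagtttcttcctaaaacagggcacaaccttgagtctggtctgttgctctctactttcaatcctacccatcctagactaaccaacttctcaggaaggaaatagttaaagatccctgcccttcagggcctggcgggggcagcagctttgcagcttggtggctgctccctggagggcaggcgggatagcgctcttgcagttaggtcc
Ednrb, chr14:103843702-103843951, minus strand: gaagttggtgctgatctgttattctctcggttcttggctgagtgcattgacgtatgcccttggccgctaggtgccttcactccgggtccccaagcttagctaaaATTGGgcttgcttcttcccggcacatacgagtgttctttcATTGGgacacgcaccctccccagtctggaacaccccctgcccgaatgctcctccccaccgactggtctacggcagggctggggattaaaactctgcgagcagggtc

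A set of 8 motifs was searched on both strands: the TATA box TATAAA, the GC box GGGCGG, the AP-1 site TGANTCA, the GATA site TTATCT, the E-box CACGTG, the ATF4 composite site TGATGNAA, the CRE TGACGTCA and the CCAAT box CCAAT. The Edn1 window held 1 CCAAT box at −203 to −199 from the start, and the Ednrb window held 2, at −146 to −142 and −106 to −102 on the opposite strand. The Edn3 and Ednra windows held none of these letters. Across 32851 RefSeq windows of the same length, 33.8% held a CCAAT box, 32.7% a GC box, 12.4% a TATA box, 9.99% a GATA site, 6.75% an AP-1 site, 6.02% an E-box, 3.45% an ATF4 composite site and 1.55% a CRE. The hits in Edn1 and Ednrb are thus to a motif present in a large share of windows, and the 2 receptor windows shared no motif of those searched.

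Of the 9 genes, 8 passed the filter on low values (at least 10 scaled reads in at least 5 libraries) and were tested. Edn3 was higher in SPOP_CKI hearts, Agtr1a was lower, and the other 6 did not pass the test (limma on log2(scaled reads + 1), Benjamini-Hochberg adjusted p under 0.05 over all genes tested). Over all 14212 genes tested, 22.3% passed the same test, 10.0% higher and 12.3% lower, and 1 of 8 in each direction is close to that background. The groups did not overlap for 2 of the 8 genes, where 21.3% of all genes tested did not overlap. The median log2 fold change of the 8 genes was 0.31, against −0.11 over all genes tested. Quantile normalization moved the median of all genes to 0.03. The 2 middle values of the 8 genes rose as well, Ace from 0.24 to 0.31 and Ednrb from 0.37 to 0.39.

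**Figure D1:**
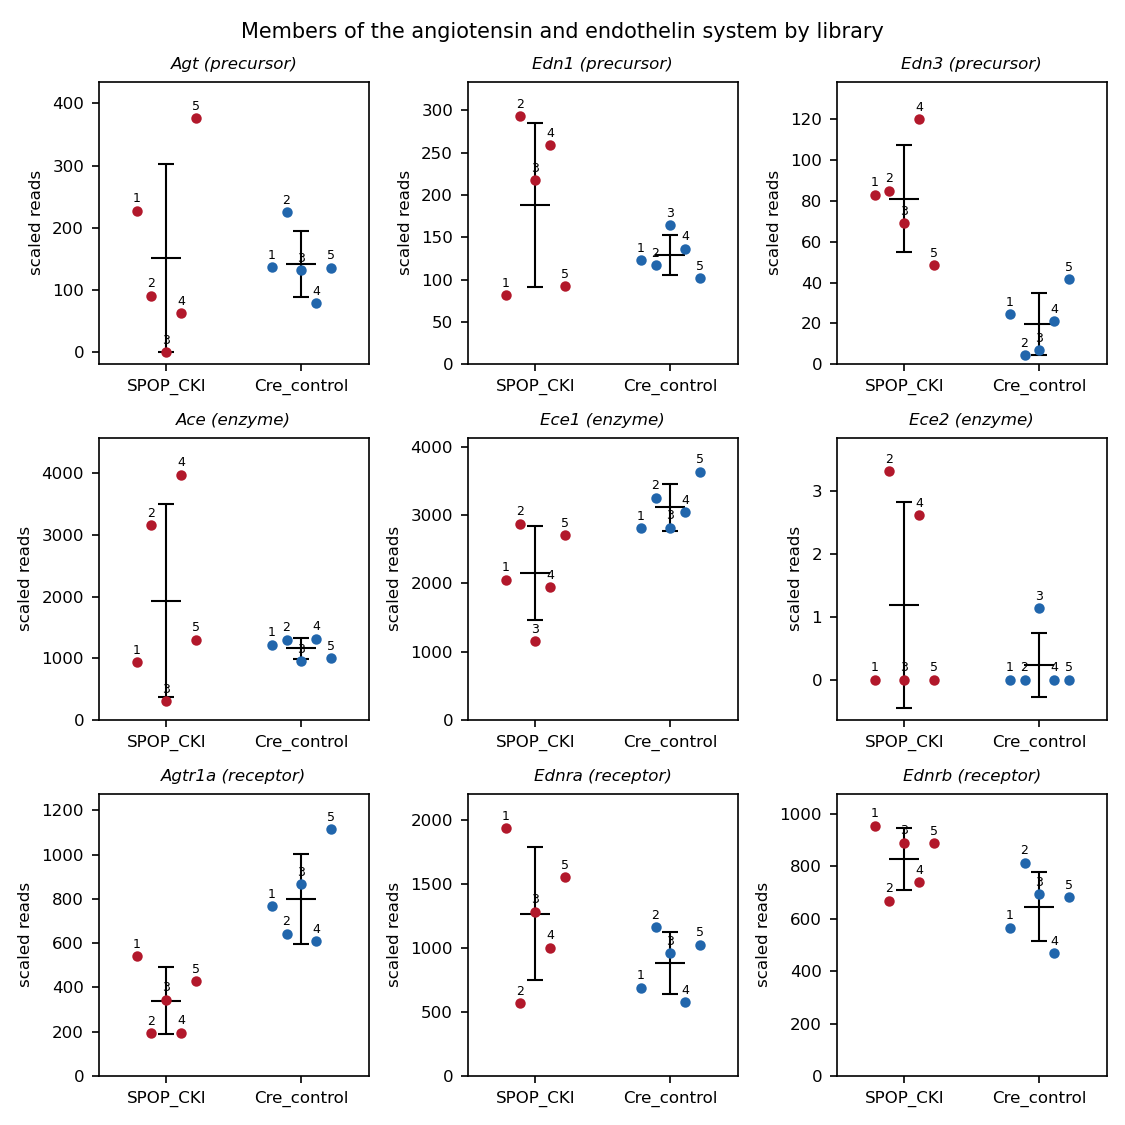
Scaled reads of each of the 9 genes in each library (y axis, linear), SPOP_CKI left and Cre_control right, with the library number above each point, the mean as a short line and the SD as a bar. Edn3 (48.4 to 120.2 in SPOP_CKI, 4.29 to 41.8 in Cre_control) and Agtr1a (192 to 540.3 in SPOP_CKI, 610.3 to 1114 in Cre_control) are the 2 genes whose groups do not overlap.

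Among the ligand genes, Edn3 was higher in SPOP_CKI hearts, and Edn1 and Agt did not pass. Edn3 (chr2:174760619-174784042, plus strand, mm10) encodes the precursor of endothelin-3, best known for its part, through the type B receptor, in neural crest derivatives such as enteric neurons and pigment cells. In SPOP_CKI hearts 1 to 5 it had 83.1, 85.1, 69.2, 120.2 and 48.4 scaled reads, against 24.4, 4.29, 6.80, 21.1 and 41.8 in Cre_control hearts 1 to 5. Every SPOP_CKI heart was above every Cre_control heart, although SPOP_CKI 5 and Cre_control 5 lay close together. The mean was 81.2 ± 26.3 in SPOP_CKI and 19.7 ± 15.1 in Cre_control (SD, n = 5 each), a ratio of 4.12, and the log2 fold change was 2.32 (SE 0.58, 95% interval 1.05 to 3.58, limma adjusted p = 0.0163). Over every way of splitting the libraries 5 against 5, the two-sided exact permutation p of Edn3 was 0.0079, the smallest possible. Any gene whose groups do not overlap reaches this p, as 21.3% of all genes tested do, so it only restates the lack of overlap. The call rested on few reads: 453 over the 5 SPOP_CKI libraries and 94 over the 5 Cre_control libraries. It was made in each of the 22 alternative settings in which Edn3 could be tested, with adjusted p between 0.00183 and 0.0431, and edgeR on recovered reads gave a log2 fold change of 2.05 with an adjusted p of 0.0235. In the authors' deposited table, Edn3 has a log2 fold change of 2.04 and an adjusted p of 0.00107.

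Edn1 (chr13:42301476-42307990, plus strand) encodes the precursor of endothelin-1, the main endothelial vasoconstrictor of the family. It had 81.3, 293, 217, 259 and 92.1 scaled reads in SPOP_CKI hearts 1 to 5, against 123, 117, 164, 136 and 102 in Cre_control hearts. The SPOP_CKI values lay on both sides of the controls: hearts 2, 3 and 4 were above the highest Cre_control heart, and hearts 1 and 5 below the lowest. Edn1 had a log2 fold change of 0.38 (SE 0.37, 95% interval −0.42 to 1.18, limma adjusted p = 0.470), which was 0.17 without SPOP_CKI 2, 0.22 without SPOP_CKI 4, 0.63 without SPOP_CKI 1 and 0.59 without SPOP_CKI 5, none past the threshold. The SD was 96.8 around a mean of 189 in SPOP_CKI and 23.6 around a mean of 129 in Cre_control (n = 5 each), so the difference in means was smaller than the SPOP_CKI spread.

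Agt (chr8:124556534-124569706, minus strand) encodes angiotensinogen, which is made mainly in liver and at a lower level in other tissues. It had 228, 90.9, 0, 62.7 and 377 scaled reads in SPOP_CKI hearts 1 to 5, against 137, 225, 132, 78.8 and 136 in Cre_control hearts. SPOP_CKI 3 had 0 reads, which allows up to 2.63 scaled reads (3 reads, counting error only), while SPOP_CKI 1 and 5 were the 2 highest of the 10 libraries. The log2 fold change was −1.30 with an interval from −4.18 to 1.59 (SE 1.31, limma adjusted p = 0.493). Its sign rested on SPOP_CKI 3: without that library the log2 fold change was 0.15 (adjusted p = 0.836), and without the 3 libraries with Xist reads it was −0.05 (adjusted p = 0.957). The direction of Agt therefore cannot be given from these libraries.

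Of the enzymes, Ace (chr11:105967945-105989964, plus strand), which makes angiotensin II and also degrades bradykinin, varied widely among SPOP_CKI hearts (SD 80.6% of the mean). Its scaled reads were 936, 3165, 302, 3981 and 1306 in SPOP_CKI hearts 1 to 5, against 1221, 1306, 958, 1319 and 1005 in Cre_control hearts. SPOP_CKI 2 and 4 stood far above all Cre_control hearts, SPOP_CKI 1 and 3 below all of them, and SPOP_CKI 5 among them. The SD was 1562 around a mean of 1938 in SPOP_CKI and 169 around a mean of 1162 in Cre_control (n = 5 each). Ace had a log2 fold change of 0.24 (SE 0.58, 95% interval −1.03 to 1.51, limma adjusted p = 0.784). This value was −0.06 without SPOP_CKI 2, −0.15 without SPOP_CKI 4 and 0.78 without SPOP_CKI 3, none of them past the threshold (adjusted p = 0.944 at the highest and 0.133 at the lowest over single libraries left out). Without the 3 libraries with Xist reads, which removes both low SPOP_CKI hearts, Ace passed at 1.09 (limma adjusted p = 0.0339), and it also passed with array weights (0.97, adjusted p = 0.0494).

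Ece1 (chr4:137862237-137965229, plus strand) encodes the main endothelin-converting enzyme. It had 2054, 2875, 1154, 1943 and 2707 scaled reads in SPOP_CKI hearts 1 to 5, against 2806, 3252, 2816, 3039 and 3633 in Cre_control hearts. For Ece1, 4 of the 5 SPOP_CKI hearts were below the lowest Cre_control heart, and SPOP_CKI 2 overlapped the controls. The log2 fold change was −0.60 (SE 0.23, 95% interval −1.10 to −0.09), which did not pass (limma adjusted p = 0.0833). It passed without SPOP_CKI 2 (−0.72, adjusted p = 0.0464) and with array weights (−0.48, adjusted p = 0.0269), and did not pass without SPOP_CKI 3 (−0.39, adjusted p = 0.0911) or without the 3 libraries with Xist reads (−0.27, adjusted p = 0.303). When log2 values were centred by transcript GC content it was −0.11 (adjusted p = 0.632).

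Ece2 (chr16:20629828-20646485, plus strand), a related converting enzyme known mainly from neural tissue, was at or near the limit of detection. It had 7 reads in all in SPOP_CKI, 4 in heart 2 and 3 in heart 4, and 1 in Cre_control, in heart 3. The other 7 libraries had 0, so Ece2 did not pass the filter and no fold is given. In GENCODE M21 it overlaps another protein-coding gene on the same strand, Gm49333, and the sources used here do not say how reads in the overlap were assigned.

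The receptor Agtr1a changed in the opposite direction to Edn3. Agtr1a (chr13:30336441-30382867, plus strand) had 540.3, 192, 344, 195 and 429 scaled reads in SPOP_CKI hearts 1 to 5, against 767, 643, 866, 610.3 and 1114 in Cre_control hearts. Every SPOP_CKI heart was below every Cre_control heart, and SPOP_CKI 2 and 4 were lowest. The mean was 340.1 ± 151 in SPOP_CKI and 800.0 ± 203 in Cre_control (SD, n = 5 each), a ratio of 0.425. The log2 fold change was −1.32 (SE 0.30, 95% interval −1.98 to −0.66, limma adjusted p = 0.0114). The two-sided exact permutation p was again 0.0079, the smallest possible, which restates that the groups did not overlap. The call was made in all 23 alternative settings, at −1.51 to −1.14 with adjusted p between 0.000811 and 0.0299. In the authors' deposited table, the log2 fold change of Agtr1a is −1.23 and the adjusted p 0.00183.

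The endothelin receptors did not pass. Ednra (chr8:77663031-77724464, minus strand) had 1942, 570.0, 1287, 1005 and 1554 scaled reads in SPOP_CKI hearts 1 to 5, against 693, 1166, 963, 576 and 1028 in Cre_control hearts. For Ednra, 3 SPOP_CKI hearts were above all Cre_control hearts, and SPOP_CKI 2 was the lowest of the 10 libraries. Its log2 fold change was 0.45 (SE 0.32, 95% interval −0.24 to 1.15, limma adjusted p = 0.313). It was 0.71 without SPOP_CKI 2 (adjusted p = 0.0673), 0.27 without SPOP_CKI 1, and 0.23 without the 3 libraries with Xist reads (adjusted p = 0.635). Ednra overlaps the noncoding gene 4933431K23Rik on the opposite strand, which averaged 119 scaled reads, and without a stated strand setting their reads cannot be told apart.

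Ednrb (chr14:103814625-103844402, minus strand) had 955, 669, 889.8, 739 and 888 scaled reads in SPOP_CKI hearts 1 to 5, against 566, 813, 693, 469 and 683 in Cre_control hearts. Hearts 1, 3 and 5 were above every control, and hearts 2 and 4 lay within the control range. Ednrb had a log2 fold change of 0.37 (SE 0.18, 95% interval −0.01 to 0.76, limma adjusted p = 0.146), and it was 0.16 with GC centring. Its SD was 119 around a mean of 828 in SPOP_CKI, the smallest relative spread of the 9 genes in that group (14.4% of the mean).

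**Figure D2:**
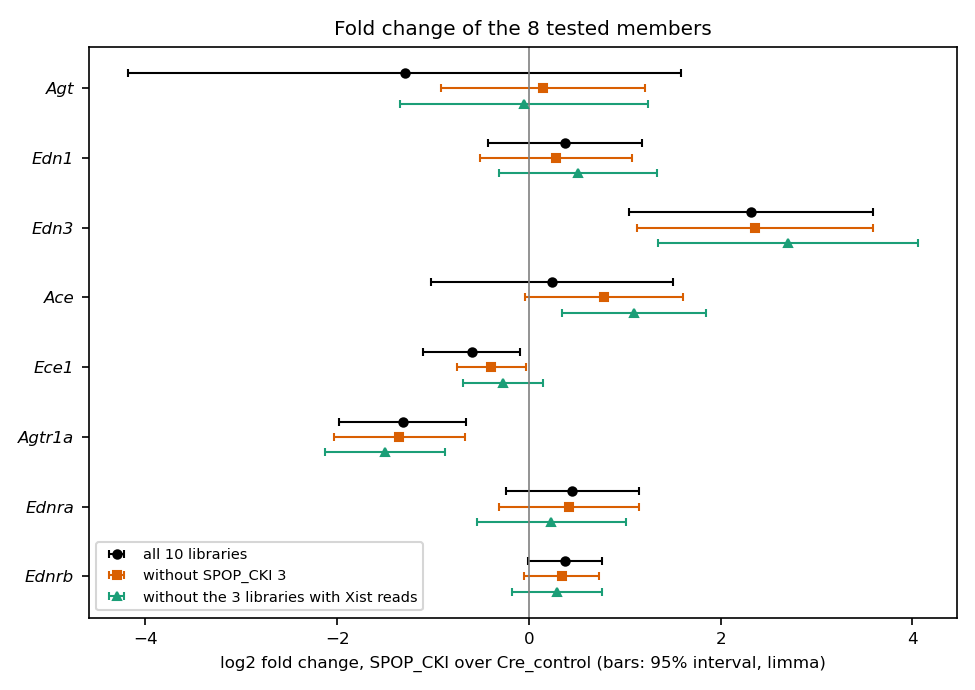
Log2 fold change of SPOP_CKI over Cre_control (x axis) with its 95% interval for the 8 tested genes, from all 10 libraries (black), without SPOP_CKI 3 (orange) and without the 3 libraries with Xist reads (green). Edn3 lies right of 0 and Agtr1a left of 0 in all 3 fits, Agt moves from −1.30 to 0.15 when SPOP_CKI 3 is left out, and Ace reaches 1.09 without the 3 libraries.

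Within the SPOP_CKI group, several of these genes were split by the same hearts. SPOP_CKI 2 and 4 had the 2 highest values of the group for Ace, Edn1 and Edn3 and the 2 lowest for Agtr1a, Ednra and Ednrb. For Edn3, however, SPOP_CKI 2 (85.1 scaled reads) was barely above SPOP_CKI 1 (83.1). Relative to the Cre_control mean on the log2(scaled reads + 1) scale, Ace stood at 1.46 in SPOP_CKI 2 and 1.79 in SPOP_CKI 4, and Agtr1a at −2.01 and −1.995 in the same hearts. In the other 3 SPOP_CKI hearts Ace ranged from −1.93 to 0.18 and Agtr1a from −1.18 to −0.53. Edn3 was above the Cre_control mean in all 5, by 1.64 in SPOP_CKI 5 to 2.94 in SPOP_CKI 4, and Agtr1a was below it in all 5.

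**Figure D3:**
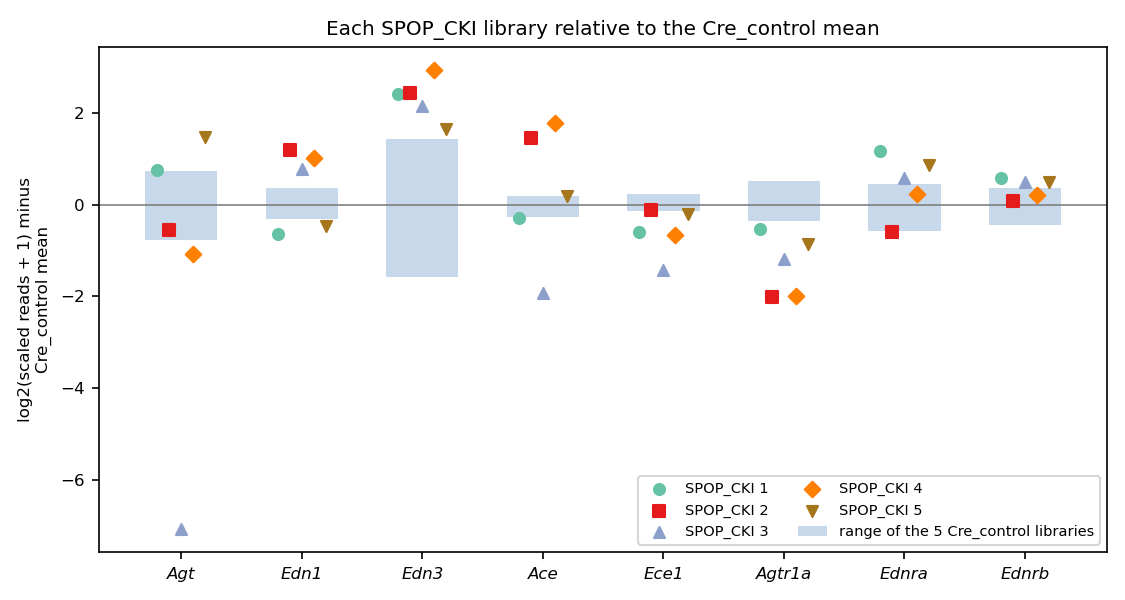
Difference of each SPOP_CKI library from the Cre_control mean on the log2(scaled reads + 1) scale (y axis) for the 8 tested genes, with the range of the 5 Cre_control libraries as a blue band. SPOP_CKI 2 and 4 are highest for Ace and lowest for Agtr1a, and SPOP_CKI 3 is at −7.08 for Agt, where it had 0 reads.

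The same 2 hearts also held the most RNA of activated fibroblast and macrophage markers. This was not particular to those cell types. Within the SPOP_CKI group, hearts 2 and 4 also had the highest sums of fibroblast, neutrophil, atrial cardiomyocyte, Schwann and neuronal, lymphocyte and mast cell markers. They had the lowest sums of ventricular cardiomyocyte and pericyte markers. Summed over 10 activated fibroblast markers, SPOP_CKI 2 had 41396 and SPOP_CKI 4 had 67280 scaled reads, the other SPOP_CKI hearts 10028 to 15508, and Cre_control hearts 3546 to 5583. Acta2, which was also listed as a smooth muscle marker, made up most of that sum in SPOP_CKI 1, 3 and 5. It had 10292, 6893, 8273, 15343 and 5459 scaled reads in SPOP_CKI hearts 1 to 5, against 1043 to 2362 in Cre_control hearts. Its log2 fold change was 2.58 (limma adjusted p = 0.000412). Of the 9 activated fibroblast markers tested, 5 were higher in SPOP_CKI, where 10.0% of all genes tested were. Summed over 10 macrophage markers, SPOP_CKI 2 and 4 had 22086 and 29253, the other SPOP_CKI hearts 6653 to 9314 and Cre_control hearts 6959 to 12036. Of the 10 macrophage markers, 2 were higher, 1 was lower and 7 did not pass, where 10.0% and 12.3% of all genes tested were higher and lower. None of these markers was at 0 in every library, and their part in the values of Ace, Edn1 or Agtr1a was not tested.

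Of 12 endothelial markers, 6 were lower in SPOP_CKI hearts, 0 were higher and 6 did not pass, where 12.3% of all genes tested were lower. Summed over the 12, SPOP_CKI hearts had 26628 to 36937 scaled reads and Cre_control hearts 38005 to 44458, without overlap. Pecam1, an adhesion protein of endothelial junctions, had a log2 fold change of −0.48 (limma adjusted p = 0.0274), a call lost in 10 of the 23 alternative settings. These were the fits without SPOP_CKI 4, without Cre_control 2, 3, 4 or 5 (−0.54 to −0.44 over single libraries left out, adjusted p 0.0185 to 0.0763) and without the 3 libraries with Xist reads, quantile normalization, no filter on low values, the replicate block and GC centring. Smooth muscle markers summed to 22791 to 61414 in SPOP_CKI and 36414 to 47427 in Cre_control, and pericyte markers to 21845 to 36669 in SPOP_CKI and 28223 to 36836 in Cre_control. Ventricular cardiomyocyte markers summed to 373219 to 705791 in SPOP_CKI and 675233 to 916844 in Cre_control, 6 of 12 being lower and 1 higher, against 12.3% and 10.0% of all genes tested. Erythroid markers summed to 5314 to 8891 in SPOP_CKI and 13984 to 28120 in Cre_control. The part of these markers in the lower Agtr1a and in the Edn3 and Ece1 values was not tested.

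Levels of different genes were compared per kilobase of gene length. In SPOP_CKI hearts the order of mean levels, in scaled reads per kilobase, was Ece1 at 405, Ace at 367, Ednra at 232, Ednrb at 194, Agtr1a at 122, Edn1 at 88.1, Agt at 80.2, Edn3 at 19.7 and Ece2 at 0.23. Of the neighbours in that order, only Edn3 and Ece2 had ranges that did not overlap. In Cre_control hearts the order was Ece1 at 587, Agtr1a at 287, Ace at 219.7, Ednra at 162, Ednrb at 151, Agt at 74.9, Edn1 at 60.1, Edn3 at 4.79 and Ece2 at 0.044, and the ranges did not overlap for Ece1 and Agtr1a, for Edn1 and Edn3, and for Edn3 and Ece2. Agtr1a thus stood at rank 5 among the 9 in SPOP_CKI and at rank 2 in Cre_control, while Edn3 remained the least abundant ligand gene in both groups.

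**Figure D4:**
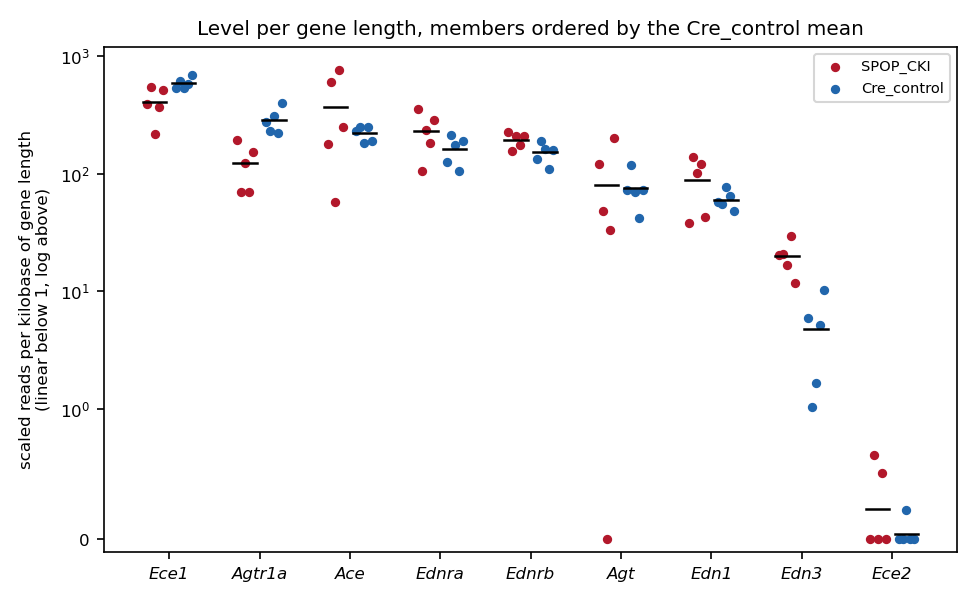
Scaled reads per kilobase of gene length (y axis, linear below 1 and logarithmic above) for the 9 genes, ordered by the Cre_control mean, with 1 point per library and the group mean as a line. Ece1 is highest in both groups (405 in SPOP_CKI, 587 in Cre_control), and Edn3 stays below Edn1 in both.

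Ratios of levels per kilobase, which cancel the scaling of a library, were formed for pairs of genes and were not tested. The ratio of the angiotensin to the endothelin-1 receptor gene, Agtr1a over Ednra, was chosen after the values were seen: it was 0.55, 0.66, 0.53, 0.38 and 0.54 in SPOP_CKI hearts 1 to 5, against 2.18, 1.08, 1.77, 2.08 and 2.13 in Cre_control hearts. All 5 SPOP_CKI hearts had more Ednra than Agtr1a per kilobase, and all 5 Cre_control hearts the reverse. The ratio of Ednra to Ednrb, the 2 endothelin receptors, was 1.58, 0.66, 1.13, 1.06 and 1.36 in SPOP_CKI hearts and 0.95 to 1.17 in Cre_control hearts, so it overlapped.

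Across all 10 libraries, the genes most like each of the 8 measured genes were listed by Pearson's r of log2(scaled reads + 1) among 9717 protein-coding genes with a mean of at least 100. These correlations are a description over 10 libraries that share group, depth scaling and the library that stands apart. Among the genes most like Agtr1a were Acsl1 and Usp2 (r = 0.96 each). Acsl1 encodes an enzyme that activates fatty acids, and Usp2 a deubiquitinase. Edn3 was most like Ctso (0.93), Snapc1 (0.91) and Ankrd1 (0.90), the last a cardiac ankyrin repeat gene known as a marker of wall stress.

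Ace was most like Usp18 (0.98), Arrb2 (0.98) and Fbln2 (0.98), and Edn1 most like Scpep1 (0.95), Rnf4 (0.94) and Csnk2a2 (0.93). Fbln2, an extracellular matrix gene, had 7512 and 7502 scaled reads in SPOP_CKI 2 and 4, the same hearts that were highest for Ace, and 1837 to 3348 in the other 3. Fbln2 was picked for its likeness to Ace in these libraries, so the shared hearts are not a separate observation. Among the genes most like Ednra were Gid8 (0.91) and Thbd (0.91), and among those most like Ednrb were Phtf2 (0.92) and Pcid2 (0.91). The 2 endothelin receptors were each among the 100 genes most like the other, and no other pair of the 8 was. Edn3, whose mean was under 100, was not among the genes compared, so it could not appear in the list of another gene. The likenesses of Agt (Dolk, 0.99) and Ece1 (Zc3h4, 0.98) include SPOP_CKI 3, in which both Agt and Ece1 were lowest of the 10 libraries.

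The wider renin-angiotensin system was read from 22 other genes. Of these, 18 are in the table and 15 were tested: 1 was higher, 2 were lower and 12 did not pass, with a median log2 fold change of −0.12, against −0.11 over all genes tested, of which 10.0% were higher and 12.3% lower. Agtrap, whose product promotes internalisation of the type 1 receptor, fell: it had 414, 589, 296, 593 and 618 scaled reads in SPOP_CKI hearts 1 to 5, against 920.0, 861, 761, 1027 and 812 in Cre_control hearts. The groups did not overlap, the log2 fold change was −0.85 (SE 0.21, limma adjusted p = 0.0161), and the call was made in all 23 alternative settings. Agtr1a and the gene of its regulator were thus both lower, and their ratio per kilobase overlapped between the groups (0.50 to 1.99 in SPOP_CKI, 0.90 to 2.08 in Cre_control).

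Mme, the gene of neprilysin, which degrades natriuretic and other vasoactive peptides, had 58.7, 9.09, 0, 21.8 and 120.4 scaled reads in SPOP_CKI hearts 1 to 5, against 143, 146, 197, 146 and 223 in Cre_control hearts. It was lower in every SPOP_CKI heart, at a log2 fold change of −3.27 (SE 1.04, limma adjusted p = 0.0437) that was −2.23 without SPOP_CKI 3. The call was lost in 11 of 23 alternative settings: without any 1 of the 5 Cre_control libraries, without SPOP_CKI 2 or 4 (adjusted p at most 0.0838), with edgeR, with no filter, with a pseudocount of 0.5 and with neither trended nor robust variances. Atp6ap2, the (pro)renin receptor and an accessory protein of the vacuolar proton pump, had 773, 881, 996, 1099 and 444 scaled reads in SPOP_CKI hearts, against 497, 505, 505, 377 and 398 in Cre_control hearts. Only SPOP_CKI 5 overlapped the controls. The log2 fold change was 0.82 (SE 0.23, limma adjusted p = 0.0273), a call lost without SPOP_CKI 2 or 4 or without Cre_control 1, 4 or 5 (0.71 to 1.04, adjusted p at most 0.0725 over libraries left out) and when the 3 Xist-positive libraries were removed or GC centring was used. The list had 0 higher genes in each of those 5 fits that leave out 1 library, and it had 2 without SPOP_CKI 3. The angiotensin type 2 receptor Agtr2 and the angiotensin-(1-7) receptor Mas1 were below the filter.

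Of 5 other endothelin genes only Furin, a protease that cuts endothelin precursors to big endothelins, was tested. Its log2 fold change was −0.94 (SE 0.45, limma adjusted p = 0.150), with 1247, 2101, 289.9, 1183 and 1912 scaled reads in SPOP_CKI hearts and 1938 to 2521 in Cre_control hearts, and it was −0.45 without SPOP_CKI 3. It passed in 1 of 23 alternative settings, array weights. Edn2, the remaining endothelin gene, was below the filter.

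Downstream of the receptors, 20 of 21 listed genes of Gq and G12/13 signalling were tested: 4 were higher, 3 lower and 13 did not pass, with a median of −0.09. Over all genes tested, 10.0% were higher and 12.3% lower. Rock2, a kinase gene of actomyosin contraction, had 3992, 4865, 4585, 3676 and 4930 scaled reads in SPOP_CKI hearts, against 2384, 2337, 2727, 1493 and 3141 in Cre_control hearts, without overlap (log2 fold change 0.90, SE 0.20, limma adjusted p = 0.00980). Prkd1, protein kinase D1, had 128, 57.8, 97.2, 102 and 137 in SPOP_CKI hearts, against 215, 161, 244, 195 and 264 in Cre_control hearts, also without overlap (−1.08, SE 0.26, limma adjusted p = 0.0135). Both calls were made in all 23 alternative settings. Gna11, a Gq-class alpha subunit, and Itpr3, an inositol trisphosphate receptor, overlapped between groups and passed narrowly (−0.98 and −0.90, limma adjusted p = 0.0376 and 0.0438). Each lost its call in 12 of 23 alternative settings, among them edgeR, GC centring, neither trended nor robust variances, the fit without the 3 Xist-positive libraries, and the fits without SPOP_CKI 1, 2 or 4 or without Cre_control 1, 3, 4 or 5. In all of these 1 gene of the list was lower, while 5 were lower without SPOP_CKI 5. Gna11 also lost its call without Cre_control 2 and Itpr3 with no filter on low values. The genes of this list thus did not move one way.

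Of 10 genes of receptor desensitisation, 1 was higher, 0 were lower and 9 did not pass, with 10.0% and 12.3% of all genes tested higher and lower. Grk5, a kinase that desensitises receptors and acts in hypertrophic signalling, had 1179 to 1859 scaled reads in SPOP_CKI hearts and 812 to 1124 in Cre_control hearts (0.56, SE 0.16, limma adjusted p = 0.0246). Its call was lost without Cre_control 1 or 3 (adjusted p at most 0.0716), and with no filter on low values, leaving 0 genes higher, and 2 were higher without SPOP_CKI 3. Grk2, the kinase gene with the next smallest p, had a log2 fold change of −0.30 (limma adjusted p = 0.164).

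Of 6 genes of aldosterone and mineralocorticoid receptor action, 3 were tested and 1 was lower, where 12.3% of all genes tested were. Hsd11b1, the enzyme that regenerates active glucocorticoid, had 209, 259, 319, 138 and 184 scaled reads in SPOP_CKI hearts, against 470.1, 532, 558, 688 and 484 in Cre_control hearts. The groups did not overlap (−1.34, SE 0.22, limma adjusted p = 0.00263), and the call was made in all 23 alternative settings. Sgk1, a kinase gene induced by corticosteroids, had 1352, 1122, 3134, 1987 and 1254 scaled reads in SPOP_CKI hearts and 2511 to 3091 in Cre_control hearts, so SPOP_CKI 3 was above all controls and the others below them. It did not pass (−0.75, limma adjusted p = 0.0551), and without SPOP_CKI 3 it did, at −0.98 (adjusted p = 0.00172), which made 2 lower genes of the 3. Sgk1 passed in 8 of the 23 alternative settings.

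Genes that angiotensin II or endothelin-1 is known to induce in cardiac cells were read from a list of 17, of which 16 were tested: 5 were higher, 0 lower and 11 did not pass, with a median of 0.82. Over all genes tested, the shares were 10.0% higher and 12.3% lower. Nppa, the atrial natriuretic peptide gene, had 5427, 18587, 2753, 10206 and 3684 scaled reads in SPOP_CKI hearts, against 1246, 721, 218, 1377 and 542 in Cre_control hearts, without overlap (3.22, SE 0.59, limma adjusted p = 0.00446). Nppb, the B-type natriuretic peptide gene, rose by 2.09 on the log2 scale (SE 0.42, limma adjusted p = 0.00665) and Myh7, the beta-myosin heavy chain gene, by 2.41 (SE 0.64, limma adjusted p = 0.0207). Both overlapped between groups, with 4 SPOP_CKI hearts above all controls for each gene. Nppb had 4736 scaled reads in SPOP_CKI 5 and 5123 in Cre_control 5. Myh7 had 10814 in SPOP_CKI 4 and 20635 in Cre_control 5. Nppa and Nppb were called in all 23 alternative settings, and Myh7 in all but no filter on low values and array weights. Rcan1, a calcineurin target, had 3037, 10118, 1755, 6524 and 2128 scaled reads in SPOP_CKI hearts and 1293 to 1759 in Cre_control hearts (1.35, SE 0.42, limma adjusted p = 0.0410). The test no longer called Rcan1 when SPOP_CKI 2, SPOP_CKI 4 or any 1 Cre_control library was left out, with no filter, or with neither trended nor robust variances.

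Col1a1, a fibrillar collagen gene of the same list, did not pass, and its values were split by heart. It had 4432, 13923, 1059, 16112 and 3623 scaled reads in SPOP_CKI hearts and 1394 to 3085 in Cre_control hearts (1.28, limma adjusted p = 0.170). SPOP_CKI 2 and 4 were again far above the rest. The count of higher genes in the list was 3 without SPOP_CKI 2 or 4 or without Cre_control 1, 2 or 3, and 9 when the 3 Xist-positive libraries were removed, while 1 gene was lower without Cre_control 3. These genes respond to many other stimuli, and the list's values are not a measure of receptor signalling.

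Of 12 genes of other vasoactive systems, 11 were tested: 1 was higher, 1 lower and 9 did not pass, with a median of −0.01 and the same 10.0% and 12.3% of all genes tested higher and lower. The 2 called genes form 1 receptor: Calcrl, the receptor-like core for adrenomedullin and CGRP, and Ramp2, its partner for adrenomedullin. Calcrl had 972, 985, 1523, 1377 and 1434 scaled reads in SPOP_CKI hearts, against 699, 924, 821, 481 and 929 in Cre_control hearts (0.72, SE 0.22, limma adjusted p = 0.0338). Ramp2 had 772, 416, 640.2, 575 and 394 in SPOP_CKI hearts, against 1249, 1207, 1704, 1702 and 1285 in Cre_control hearts (−1.38, SE 0.21, limma adjusted p = 0.00164). The groups did not overlap for either gene. The Calcrl call was lost without SPOP_CKI 4 or 5 or without Cre_control 1, 3 or 4 (adjusted p at most 0.0794), with GC centring and with neither trended nor robust variances, with 0 genes of the list higher without SPOP_CKI 4 or those controls and 3 without SPOP_CKI 3. The Ramp2 call held in 22 of 23 alternative settings and was lost with GC centring.

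**Figure D5:**
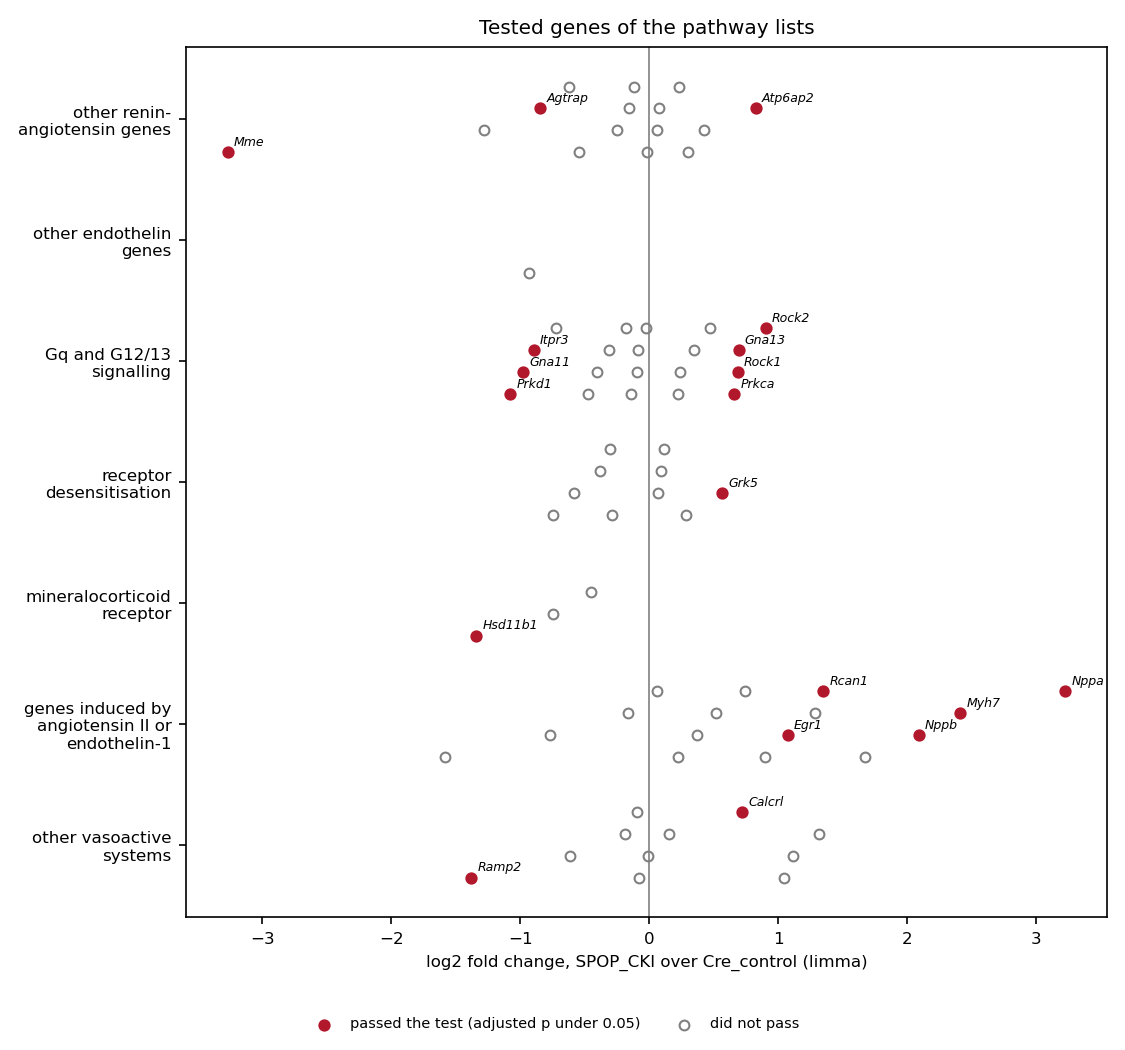
Log2 fold change of SPOP_CKI over Cre_control (x axis) of every tested gene in the 7 pathway lists (rows), filled where the gene passed the test and named there. Called genes lie on both sides of 0 in the renin-angiotensin, Gq and G12/13 and vasoactive lists, while the 5 called genes of the induced list lie right of 0.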

How the data were processed

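The submitters' processing notes name featureCounts 1.5.0-p3, DESeq2 1.20.0 and mm10. The sources used here give no aligner, annotation release or strand setting. The per-library values deposited by the authors are a read signal scaled by size factor. Dividing by the value of 1 read gave whole reads for 100% of values (tolerance 0.001). For each gene the table deposited by the authors also has log2 fold changes and raw and adjusted p-values.

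The main test was limma 3.58.1 (R 4.3.3; trend and robust variances) on log2(value + 1) of the 14212 genes with at least 10 in at least 5 libraries, with genotype as the only term, two-sided, Benjamini-Hochberg adjusted over all genes tested. Fold changes are on that scale. The pseudocount shrinks those of low genes, while a single low library pulls a mean of log values, so they differ from ratios of means in either direction (Edn3 was 4.98-fold higher on this scale, with a ratio of means of 4.12). The count tests, edgeR 4.0.16 (quasi-likelihood) and DESeq2 1.42.0 on recovered reads, were alternatives, since the values are not counts as deposited. The fit was also run on simulated data, in which 97 of 13877 genes tested had a log2 change of size 1 and 94 had one of size 2. It called 18.6% of the changes of size 1 and 71.3% of those of size 2. In the hearts 22.3% of all genes tested passed, so these shares belong to the simulated setting only. The share of changes of either size that the test finds in the hearts was not tested. Floors for 0 reads cover counting error only, while the limma intervals reflect how the libraries scatter.

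The 9 genes and all gene lists were chosen with earlier results of these data known. Named genes are the 9, up to 4 called genes of each pathway list with the largest fold change (or the 2 with the smallest p where fewer than 2 were called), and the 3 most correlated genes of each; some of these are not reported here, and Col1a1 was added after its values were seen. Coordinates are those of the deposited table and equal GENCODE M21 for the 9 genes. All pairs of libraries within a group differed by more than sampling noise (chi-square over degrees of freedom at least 12.7).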

Additional observations from a re-analysis of the deposited data

How the results depend on the processing

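Over 23 alternatives, Agtr1a stayed lower and called in each, and Edn3 stayed higher and called in the 22 that tested it. With a filter of at least 50 scaled reads in at least 5 libraries Edn3 was not tested, which left 0 of the 9 genes higher. Array weights, which give divergent libraries less weight, called 5320 genes in all and 2 higher and 2 lower among the 9, adding Ace (0.97) and Ece1 (−0.48). Leaving out the 3 libraries with Xist reads also gave 2 higher, with Ace at 1.09. Agt changed sign with edgeR (0.12) and DESeq2 (0.10) on recovered reads, neither past the threshold. With 1 library left out at a time, Agt ranged from −1.99 to 0.15 (positive without SPOP_CKI 3), Ace from −0.15 to 0.78 (negative without SPOP_CKI 2 at −0.06 and without SPOP_CKI 4) and Ece1 from −0.72 to −0.39. The number of lower genes among the 9 was 1 to 2 (2 without SPOP_CKI 2, when Ece1 passed), and all genes called ranged from 1963 without Cre_control 1 (1967 without Cre_control 4) to 4400 without SPOP_CKI 3, against 3168 from all libraries. The cause of these shifts was not tested.

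With the replicate number as a block, the count of genes called was 2946 and the same 2 of the 9 genes passed (Edn3 at adjusted p = 0.0323, Agtr1a at 0.00833, limma). Same-numbered libraries had deviations correlated at 0.026 to 0.16, and 2 of the 5 numbers correlated best with their own number, so the numbers were not taken to pair the hearts. Edn3 and Ece2 are limited by their few reads, and Ace, Edn1 and Agt by the spread among SPOP_CKI hearts.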
